A study of Mus musculus with 18 samples.

Results

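Regions with a recurrent ATF4 chromatin immunoprecipitation peak in untreated neurons and no called peak after 2-deoxyglucose (2-DG) made up a small class, with 590 members of 35717 regions in all. ATF4 is a transcription factor that acts in the integrated stress response: when that response is active, translation of its message is favoured, and the protein binds composite C/EBP-ATF elements at genes of amino acid supply, tRNA charging and protein folding. 2-DG is a glucose analogue that slows glycolysis and interferes with protein glycosylation, and both can switch this response on. In unstressed cells ATF4 protein is usually scarce.

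Neurons were taken from mouse embryos at embryonic day 14 and kept for 2 days in vitro, with no strain or genotype given in the labels. The treated cultures received 10 mM 2-DG for 6 h, and the control cultures were left untreated. The series has 18 samples, of which 10 are immunoprecipitations with a peak list; 4 2-DG and 4 control lists carried labels that agreed on the treatment. The other 2 lists name one treatment in the title and the other in the description, and they entered no group. The remaining 8 samples are inputs and were not analysed here. Control samples carry an antibody label that reads none, whereas the design text gives the ATF4 antibody for untreated and treated neurons alike. The cell type could not be checked against markers, since a peak list holds no expression values.

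The 2-DG lists held 15240, 7369, 6371 and 5856 peaks, and the control lists held 3461, 3784, 8202 and 6811 peaks. 2-DG replicate 1 thus stood apart in length. The files give no depth, and the absence of a peak says only that the authors' caller made no call. Peaks of the 8 lists on the autosomes and chromosome X were merged where they shared at least 1 bp. A member is a merged region touched by a peak in at least 2 of 4 control lists and in 0 of 4 2-DG lists, and is called a control-only recurrent region. The mirror class, touched in at least 2 2-DG lists and 0 control lists, is called 2-DG-only recurrent. Members were thus chosen by the peak calls of the 8 lists, and their presence in control lists and absence from 2-DG lists is a description.

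Members were 1.65% of all regions, while the 3800 regions of the 2-DG-only class were 10.6%. With the top 3461 peaks of every list the classes had 611 and 1838 regions. Of the 590, 549 were touched in 2 control lists, 40 in 3 and 1 in all 4. The 2-DG-only class had 2376 regions in 2 lists, 808 in 3 and 616 in 4, and its total was 1615 without 2-DG replicate 1, where the control-only class had 912, and 2010 without 2-DG replicate 2. Most members thus sat at the lowest number of lists that the rule admits. Just outside the rule lay 11434 regions touched in 1 control list and 0 2-DG lists. A further 494 regions were touched in 2 control lists and 1 2-DG list. Regions touched in 2 control lists were therefore nearly as often shared with 1 2-DG list as with 0. Another 346, 191 and 58 regions of 2 control lists were touched in 2, 3 and 4 2-DG lists. In all, 2110 regions touched in at least 2 control lists were also touched in at least 1 2-DG list, against the 590 members. Most regions recurrent in control lists thus had a 2-DG peak as well. The mean within-list percentile of fold had a median of 48.6 for the 549 members in 2 control lists, 49.4 for those 494 regions and 33.2 for the regions of 1 control list.

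Members at gene starts are described first. Promoter windows of 250 bases before to 50 after the start, for 32619 RefSeq starts (GRCm38.p6, the assembly that mm10 names), were touched by 5 members (0.847%), against 149 regions (3.92%) of the 2-DG-only class and 1.17% of all regions. Those 5 members touched 6 windows, at Ilrun, 4930474N05Rik, Add1, Pi4k2b, and the overlapping pair Fam120a and Fam120aos. Bases before the start are printed for the 4 windows whose upstream part a member reaches, because they are the sequences in which a promoter peak of untreated neurons lies. They are given 5′ to 3′ on the gene's strand, at chr17:27820543-27820792 (minus strand) for Ilrun, chr14:36094715-36094964 (plus) for 4930474N05Rik, chr5:34573414-34573663 (plus) for Add1 and chr13:48967862-48968111 (plus) for Fam120aos. Capitals mark the bases inside the member region.

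Ilrun: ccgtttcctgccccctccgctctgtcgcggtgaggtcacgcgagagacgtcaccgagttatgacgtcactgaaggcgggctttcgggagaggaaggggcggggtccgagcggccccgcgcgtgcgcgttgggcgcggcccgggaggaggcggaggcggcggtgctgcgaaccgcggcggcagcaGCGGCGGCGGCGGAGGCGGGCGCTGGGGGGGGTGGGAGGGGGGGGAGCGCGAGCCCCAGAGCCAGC
4930474N05Rik: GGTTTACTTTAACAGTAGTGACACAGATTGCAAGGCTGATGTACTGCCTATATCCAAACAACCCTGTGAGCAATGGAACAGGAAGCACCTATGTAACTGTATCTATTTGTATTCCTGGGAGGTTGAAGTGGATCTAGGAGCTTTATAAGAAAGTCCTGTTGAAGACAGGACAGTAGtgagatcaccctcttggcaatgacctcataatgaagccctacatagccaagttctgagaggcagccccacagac
Add1: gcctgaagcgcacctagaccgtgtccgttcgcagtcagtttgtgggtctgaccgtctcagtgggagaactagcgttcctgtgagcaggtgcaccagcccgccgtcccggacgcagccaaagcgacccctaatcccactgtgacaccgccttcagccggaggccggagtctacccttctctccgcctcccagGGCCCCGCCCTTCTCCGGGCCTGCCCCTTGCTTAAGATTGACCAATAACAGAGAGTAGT
Fam120aos: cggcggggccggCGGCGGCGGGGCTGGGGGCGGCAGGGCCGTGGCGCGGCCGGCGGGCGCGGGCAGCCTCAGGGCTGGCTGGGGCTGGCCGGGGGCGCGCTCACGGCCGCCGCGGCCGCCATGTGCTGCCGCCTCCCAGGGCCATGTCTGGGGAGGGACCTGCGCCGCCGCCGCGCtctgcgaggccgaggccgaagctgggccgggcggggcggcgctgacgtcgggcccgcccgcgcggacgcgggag

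Both strands of the windows were searched for TGATGNAA, the core of the C/EBP-ATF composite element, for TGACGTCA, the cAMP response element, and for TGACGCAA, a related variant; no stretch of 8 bases can match more than 1 of the 3. TGATGNAA was in 0 of the 6 windows at members, in 51 of 179 (28.5%) at 2-DG-only regions and in 3.87% of all 32619 windows. TGACGCAA was likewise in 0 of the 6, in 18.4% of windows at 2-DG-only regions and in 0.487% of all. TGACGTCA was in 1 of the 6, the Ilrun window, in 3.91% at 2-DG-only regions and in 1.80% of all. In the printed Ilrun sequence it occupies bases 61 to 68, in lower case, and 116 bases separate it from the member region. Windows at members had a median GC content of 70.2% (44.7% to 86.7%), against 57.3% at 2-DG-only regions and 53% over all windows. With 6 windows these shares describe those windows and were not tested.

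At Ilrun, whose human counterpart restrains antiviral gene expression, the peak region chr17:27820504-27820608 (mm10) crossed the gene start and was called in 3 of 4 control lists. The authors' fold enrichment there was 4.73, 4.76 and 3.54 in control replicates 1, 2 and 4. The region 52 bp from 4930474N05Rik, chr14:36094338-36094890, had folds of 4.00, 4.76 and 4.95 in the same 3 lists. A second member lay 444 bp inside that gene, with folds of 4.00 and 3.89 in control replicates 1 and 4. Within lists, the Ilrun peaks stood at the 64.4th, 62.0th and 10.5th percentile of fold, and those of the first region at 4930474N05Rik at the 32.8th, 62.0th and 72.0th. Both regions thus held ranks on either side of the middle. The nearest 2-DG peak was 29998 bp from the Ilrun region and 114158 bp from the nearer region at 4930474N05Rik.

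Add1 encodes adducin 1, which links spectrin to actin. Its region, chr5:34573605-34573748, had folds of 4.73 and 6.60 in control replicates 1 and 2. The region at Fam120a and Fam120aos, chr13:48967874-48968037, had folds of 5.45 and 4.76 in the same pair of lists. At Pi4k2b, a phosphatidylinositol 4-kinase gene, the region chr5:52741589-52741863 had a fold of 12.0 in control replicate 1 and 4.40 in control replicate 2. That first value was the highest of any member peak in control replicate 1.

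The single region called in all 4 control lists lay far from genes. It spans chr19:52487969-52488246, 222954 bp from the nearest protein-coding gene, Ins1, which encodes insulin 1. Its folds were 5.45, 5.13, 7.02 and 3.89 in control replicates 1 to 4, at the 80.1st, 71.9th, 92.8th and 29.0th percentile of fold within each list. The 4 values thus differed in rank, being low in replicate 4 and near the top in replicate 3. The nearest 2-DG peak was 77361 bp away. Of the lists with conflicting labels, the one titled 2-DG also had a peak there, and the one titled control had none.

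**Figure D1:**
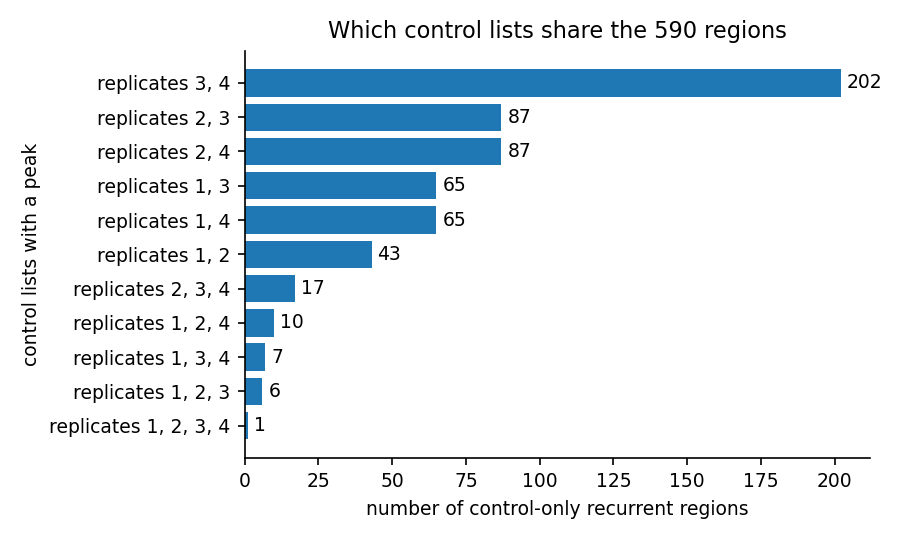
Number of control-only recurrent regions (horizontal axis) for each combination of control lists that called them (vertical axis). The pair of replicates 3 and 4 holds 202 of the 590, and the regions of 3 or 4 lists number 41.

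Sharing among control lists was uneven. Control replicates 3 and 4, the longest control lists, shared 202 members (34.2%) that none of the other 6 lists called. Pairs of one of these lists with replicate 2 held 87 regions each, and pairs with replicate 1 held 65 each. The shortest lists, replicates 1 and 2, shared 43. The regions called in 3 lists numbered 17, 10, 7 and 6 for the 4 possible sets, shown in the plot of regions by list combination. Without control replicate 4 the rule gave 231 members, without control replicate 3 it gave 236, and without control replicate 2 it gave 371. Without control replicate 1 it gave 416, and without 2-DG replicates 1 to 4 it gave 912, 680, 677 and 718. The directions follow largely from the rule, since fewer control lists offer fewer matches and fewer 2-DG lists exclude fewer regions.

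Members stood near the middle of their own lists by fold. In all 10 lists the authors' fold was a whole multiple, within 0.01, of a single step per list, for 100% of peaks. The steps were 0.309, 0.356, 0.489 and 0.332 in the 2-DG lists and 0.364, 0.366, 0.468 and 0.354 in the control lists. The denominator of the fold was therefore one value per list, with no local variation from place to place, and each fold value carried a single p and q value within a list. Fold is here given in steps. The lowest peak of control replicates 1 to 4 stood at 10, 10, 8 and 10 steps. Member peaks had medians of 12, 12, 10 and 12 steps, the same as the medians of the other peaks in each list.

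The upper end differed between members and other peaks. The highest member peak stood at 33, 22, 20 and 30 steps in control replicates 1 to 4, and the highest peak of any kind at 670, 755, 806 and 1014 steps. Over 20 steps were 1.52%, 0.398%, 0% and 1.54% of member peaks, against 8.85%, 10.6%, 2.83% and 7.77% of other peaks. Peaks within the 3 lowest steps made up 61.9%, 61.4%, 59.2% and 56.3% of member peaks, against 57.9%, 55.6%, 61.1% and 52.8% of other peaks. Since the rule removes every region with a 2-DG peak, it acts on these values, and no test was made. Peaks of the 2-DG-only class stood higher in their lists, with median percentiles of 81.7, 63.8, 64.8 and 56.8 in the 2-DG lists. Members had median percentiles between 45.1 and 52.1 in the control lists, where 1.52%, 0.398%, 8.57% and 3.34% of member peaks stood above the 90th percentile of replicates 1 to 4. Replicate 3 thus had a larger share of member peaks above this cutoff than the other control lists. Its tied peaks at 14 steps, 3.38% of its member peaks, stood just above the cutoff. Tied peaks in replicates 1, 2 and 4 stood just below it, at percentiles of 89.9, 89.5 and 89.2. Part of this difference therefore depends on where ties fall.

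**Figure D2:**
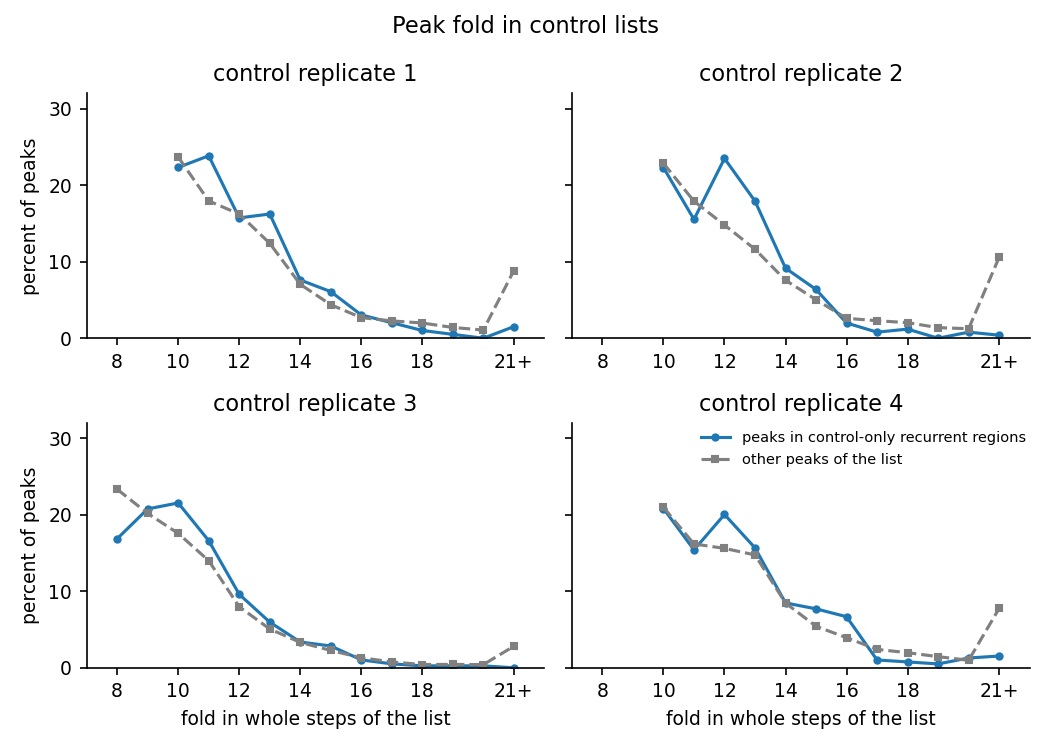
Share of peaks (vertical axis, percent) at each fold, in whole steps of the list (horizontal axis, with 21 and over together), for peaks in control-only recurrent regions (blue circles) and the other peaks (grey squares) of each control list. The bulk of both kinds of peak lies within a few steps of the lowest, and 2.83% to 10.6% of the other peaks lie over 20 steps, where at most 1.54% of member peaks lie.

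Member regions had a median width of 216 bp (105 to 879 bp), against 148 bp over all regions. It was 276 bp for the 2-DG-only class and 128 bp for regions of a single control list. Member peaks had median widths of 146, 142, 137 and 145 bp in control replicates 1 to 4. Over all peaks of these lists the medians were 154, 146, 134 and 146 bp. Widths of merged regions grow with the number of lists merged. Summits of different control lists lay a median of 62 bp apart within a member, and 69.5% of members had all summits within 100 bp. For the 2-DG-only class these values were 40 bp and 84.4%.

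Whether recurrence carried over to lists that the rule had not used was examined by leaving out 1 2-DG and 1 control list, choosing regions from the remaining 6 with the same rule, and counting how many each left-out list touched. A list's value is its mean over the 4 partners it was left out with. Left-out 2-DG lists touched 38.4%, 15.6%, 14.1% and 20.4% of such regions (22.1% ± 11.2, SD, n = 4). Left-out control lists touched 8.48%, 12.2%, 16.7% and 18.8% (14.1% ± 4.64, SD, n = 4). The groups overlapped, and the left-out 2-DG list touched more than its control partner in 13 of 16 pairs, which rested on 274 to 644 regions each. The difference, 2-DG minus control, was 8.04 percentage points (two-sided exact permutation p = 0.229, adjusted p over 4 tests 0.457). On full lists the mean share was thus lower in left-out control lists, and the difference lay within the spread between lists.

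These shares went with list length at the extremes, and unevenly among the other lists. The longest list, 2-DG replicate 1 with 15240 peaks, had the highest share, and the shortest, control replicate 1 with 3461, had the lowest. In between, from long to short, control replicate 3 with 8202 peaks had 16.7%, and 2-DG replicate 2 with 7369 had 15.6%. Control replicate 4 with 6811 had 18.8%, and 2-DG replicate 3 with 6371 had 14.1%. Next, 2-DG replicate 4 with 5856 peaks had 20.4%, and control replicate 2 with 3784 had 12.2%. The relation to length was not tested. All lists were also cut to their 3461 top peaks by p-value, with ties kept in order of chromosome and position. Control replicate 1 stayed whole, while longer lists lost their weaker peaks, so strength changed along with length. With 3461 top peaks from every list the left-out 2-DG lists touched 6.53%, 14.8%, 17.4% and 26.3% (16.2% ± 8.12, SD, n = 4). The left-out control lists then touched 18.6%, 22.8%, 14.7% and 21.9% (19.5% ± 3.68, SD, n = 4). The direction turned, to a difference of -3.26 percentage points (exact permutation p = 0.514), and the groups still overlapped. Without 2-DG replicate 1 the full lists gave 22.3% for 2-DG and 20.6% for control, a difference of 1.78 points (exact permutation p = 0.714).

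The mirror rule was scored in the same way. Of regions chosen as 2-DG-only, left-out 2-DG lists touched 85.7%, 66.6%, 23.2% and 38.4% (53.5% ± 28.0, SD, n = 4). Left-out control lists touched 5.15%, 2.69%, 5.58% and 8.88% of them (5.58% ± 2.54, SD, n = 4). Every 2-DG list lay above every control list, in 16 of 16 pairs, with a difference of 47.9 points. The two-sided exact permutation p was 0.0286, the smallest that 4 lists against 4 allow, and the adjusted p was 0.114. The unadjusted exact permutation p was 0.0571 when any 1 control list was left out. The difference between the rules was not tested.

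**Figure D3:**
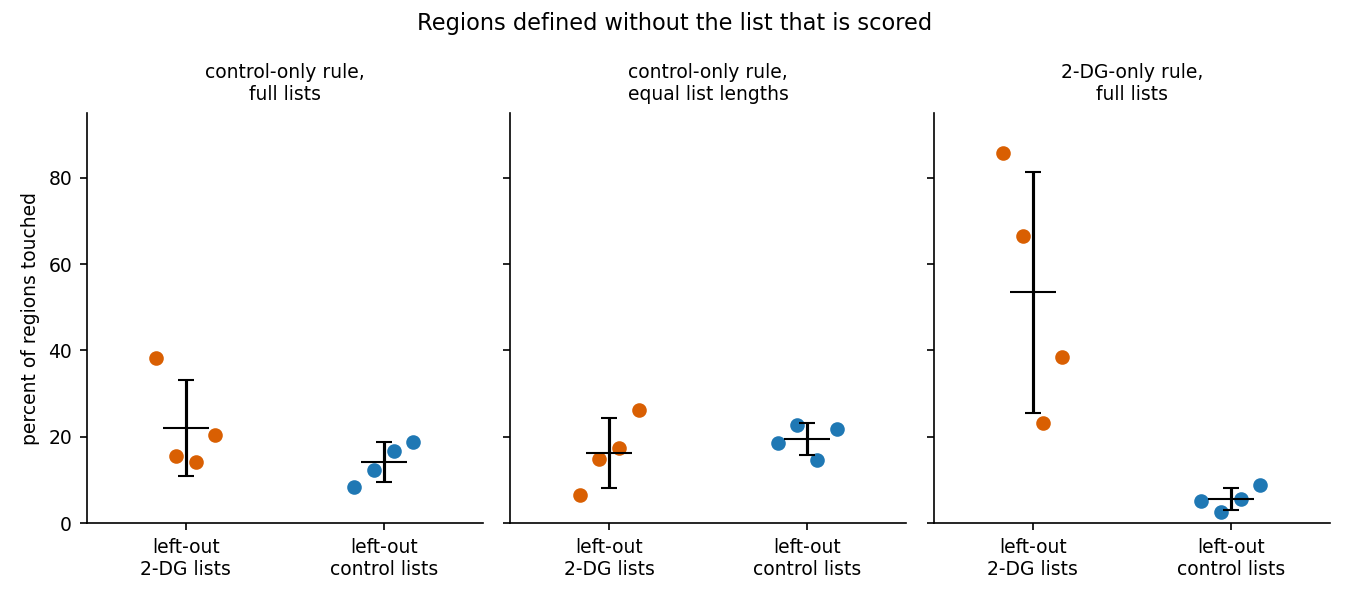
Percent of regions touched (vertical axis) by lists that took no part in choosing the regions, 1 point per list, with the mean and SD over 4 lists, for left-out 2-DG lists and left-out control lists. Under the control-only rule the groups overlap with full lists (mean 22.1% and 14.1%) and with equal list lengths (16.2% and 19.5%), and under the 2-DG-only rule they do not (53.5% and 5.58%).

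The lists with conflicting labels were also not used to choose members. The list titled 2-DG holds 7847 peaks and the list titled control 4335, so length differs here too. The list titled 2-DG touched 108 of the 590 (18.3%, exact binomial 95% interval 15.3 to 21.7), and the list titled control touched 87 (14.7%, interval 12.0 to 17.9). The intervals treat members as independent and cover counting error only. Since the same members were scored by both lists, the intervals cannot compare the lists, and the difference was not tested. Both lists touched 33 members and neither touched 428. Of the 41 members called in 3 or 4 control lists, the list titled 2-DG touched 11 and the list titled control touched 13. Over all 35717 regions the list titled 2-DG touched 12.9% and the list titled control 7.00%. Regions of a single control list were touched in 4.67% and 2.64% of cases by the same lists. Regions of 2 control lists and 1 2-DG list were touched in 33.0% and 24.1%, more often than members. Of the 3800 2-DG-only regions, the list titled 2-DG touched 31.1% and the list titled control 3.11%.

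A minority of members had a peak of a 2-DG list close by. A 2-DG peak was within 500 bp of 75 members (12.7%) and within 1000 bp of 104 (17.6%). For regions of a single control list the shares were 6.47% and 8.67%. Control peaks were within the same distances of 3.32% and 4.79% of the 2-DG-only regions, but the 2-DG lists hold more peaks, so these last shares have fewer peaks to meet. The median gap of a member to the nearest 2-DG peak was 20542 bp.

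**Figure D4:**
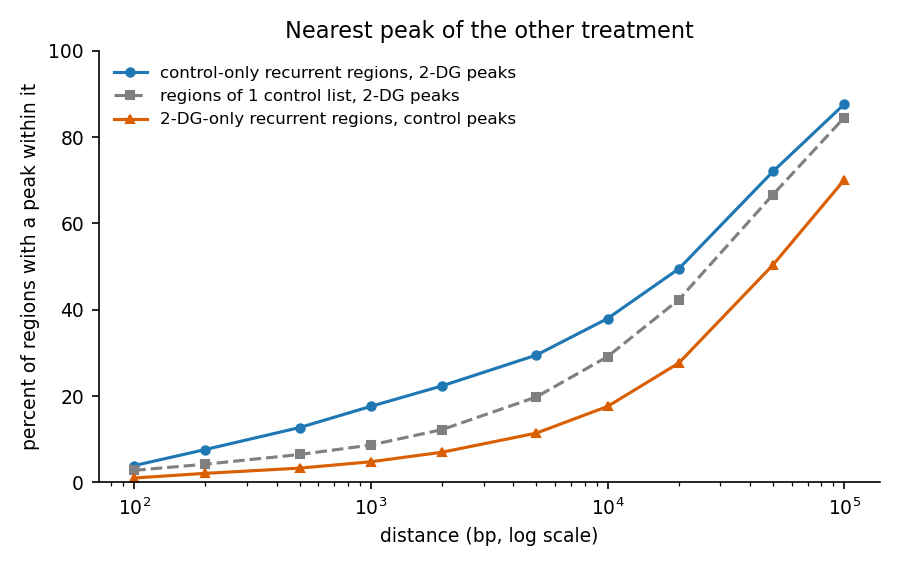
Percent of regions (vertical axis) with a peak of the other treatment within a given distance (horizontal axis, bp, log scale). The curve of control-only recurrent regions lies above that of regions of a single control list at each distance drawn, with 17.6% and 8.67% at 1000 bp, and above that of 2-DG-only regions, with 4.79%.

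Most members lay away from protein-coding genes. By their summits, 51 (8.64%) lay within 2000 bp of an end of a protein-coding gene, 193 (32.7%) elsewhere inside a gene and 346 (58.6%) between genes. Of the 51, 23 had a RefSeq gene start within 2000 bp and the rest had none. Over all 35717 regions the shares were 7.02%, 37.6% and 55.4%. The 2-DG-only class had 10.6%, 40.6% and 48.9%.

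Position relative to genes was not used to choose members, and was compared with the other peaks of the same control list. Within 2000 bp of a gene end lay 13.2%, 12.0%, 4.94% and 7.20% of member peaks, against 10.2%, 8.18%, 5.77% and 6.87% of other peaks, in control replicates 1 to 4. Members were higher in 3 of 4 lists, by a mean of 1.57 percentage points (SD of the differences 2.18, n = 4, exact sign-flip permutation p = 0.375, adjusted p = 0.5). Deeper inside genes lay 31.0%, 35.1%, 34.3% and 30.8% of member peaks, against 32.6%, 32.2%, 36.8% and 35.8% of other peaks. The mean difference was -1.56 points (SD 3.26, n = 4, exact sign-flip permutation p = 0.5, adjusted p = 0.5), with members lower in 3 of 4 lists. Neither difference exceeded the spread between lists, and 4 lists allow no p under 0.125. The gene-end difference turned to -0.518 without control replicate 1 and -1.31 without control replicate 2. It was 5.51 without control replicate 3, 2.87 without control replicate 4 and 0.00685 without 2-DG replicate 1. The gene-body difference turned to 2.73 without control replicate 4, and was -12.9 at −log10 q of at least 5 and -7.89 at fold of at least 5 (exact sign-flip permutation p = 0.125 each).

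**Figure D5:**
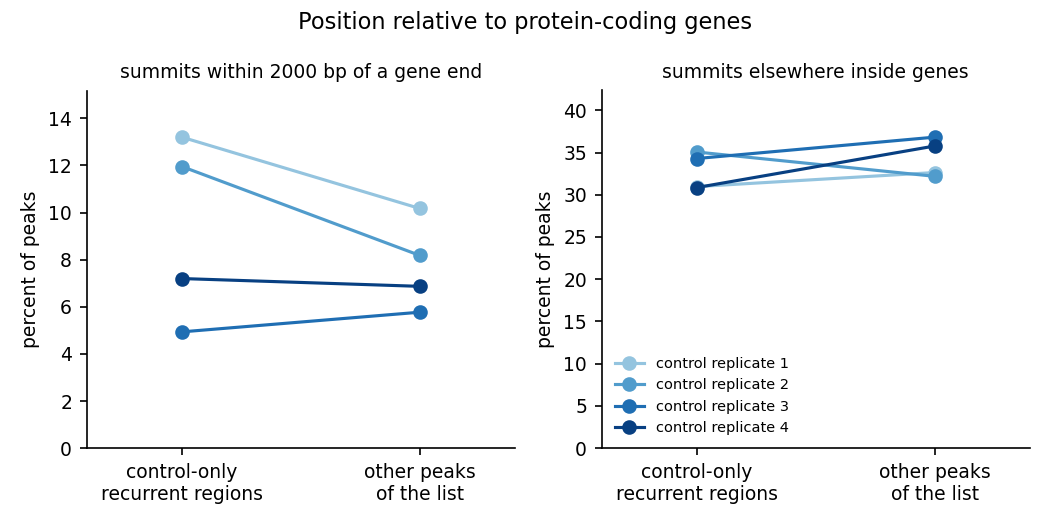
Percent of peaks (vertical axes) with a summit within 2000 bp of a protein-coding gene end and elsewhere inside a gene, for peaks in control-only recurrent regions and the other peaks of the list, with a line for each control list. At gene ends the lines fall in 3 of 4 lists and rise in control replicate 3, and inside genes they rise in 3 of 4 and fall in control replicate 2.

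Members touched few genes, and few of the known ATF4 programme. A member summit lay at an end of 53 of 21631 protein-coding genes (0.245%). Together with genes that a member region overlapped, wherever its summit lay, 238 genes (1.10%) had a member at an end or inside. Counting end peaks gene by gene, without asking that they overlap, 52 genes (0.240%) had one in at least 2 control lists and no 2-DG list. None of 34 ATF4 target genes and none of 24 genes of endoplasmic reticulum folding and degradation had a member at an end or inside. Of 20 cytosolic aminoacyl-tRNA synthetases, Farsb alone had one, inside the gene, with folds of 4.68 and 3.54 in control replicates 3 and 4. Farsb encodes the beta subunit of phenylalanyl-tRNA synthetase. With 1.10% of all genes touched, counts of 0 or 1 in lists of these sizes are near the background.

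The 26 neuronal markers, 18 activity-regulated genes and 12 neurotrophin and receptor genes had 0 members, and so did the 12 progenitor markers and the 10 markers each of astrocytes, oligodendrocytes, microglia and vascular cells, counts that the 1.10% over all genes would also give. Among 40 genes of synaptic adhesion and axon guidance, 3 (7.50%) had a member inside and 0 at an end, against 1.10% of all genes with a member at either place. They were Dlgap2, a scaffold of the postsynaptic density, Kirrel3, a synaptic adhesion molecule, and Robo2, a receptor for Slit guidance cues. All 3 were called in control replicates 3 and 4 alone. Folds there were 6.08 and 3.89 for Dlgap2, 4.68 and 3.89 for Kirrel3, and 4.21 and 5.30 for Robo2. Gene length, which sets how much room a gene offers a peak, was not taken into account.

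Genes of multicopy families were among the 53 genes with a member at an end, which were 0.245% of all protein-coding genes. They included Ifi202b and Ifi203 of the interferon-activable Ifi200 family (2 of its 10 genes), Speer4d and Speer4e, Tdpoz3 and Tdpoz4, Mrgpra3 and Mrgpra4, and the zinc finger genes Zfp978 and Zfp985. Apart from the Ifi200 and zinc finger families these pairs were picked out after their values were seen. Near-identical copies share reads, and no source used here says how such reads were treated, so peaks at these genes are uncertain. None of 1110 olfactory receptor genes and 1 of 355 vomeronasal receptor genes, Vmn2r20, had a member at an end or inside. Zinc finger protein genes had 6 of 468 (1.28%) and solute carrier genes 5 of 375 (1.33%), near the 1.10% of all protein-coding genes.

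Slc35f3, a solute carrier gene on chromosome 8, and Zfp982, a zinc finger gene on chromosome 4, each held 4 members. In Slc35f3 these lay 33864 to 120095 bp from the gene ends, and 1 of them was called in control replicates 1, 3 and 4 with folds of 4.73, 3.74 and 3.89. The 4 regions in Zfp982 lay 5459 to 31860 bp from the gene ends. One of them, called in control replicates 1, 3 and 4, had folds of 4.36, 5.15 and 3.54. A 2-DG peak lay within 1205 bp of that region and within 144 bp of another of the 4. Both genes were singled out after their counts were seen.

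Part of the class lay in crowded segments. Bins of 1000000 bp that held at least 50 merged regions, a limit chosen after the data were seen, contained 76 members (12.9%), against 6.65% of all regions and 2.97% of the 2-DG-only class. Regions called in all 8 lists had 53.2% there. Within control replicates 1 to 4, such bins held 14.7%, 14.7%, 11.7% and 12.6% of member peaks, against 23.4%, 24.3%, 11.9% and 17.0% of other peaks. The bin with most members, 9 of its 150 regions, spans 147000001 to 148000000 on chromosome 4 and holds a cluster of zinc finger genes. Next came 8 of 167 on chromosome 5, from 15000001 to 16000000, at Speer4 genes, and 7 of 155 on chromosome 13, from 12000001 to 13000000. Without these bins 514 members were left and the left-out lists differed by 7.10 points (19.5% for 2-DG and 12.4% for control, exact permutation p = 0.371).

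Of the remaining regions called in 3 control lists, only those with the highest mean within-list percentile of fold are named here. They are not all given in order of rank. The highest by mean within-list percentile of fold, chr7:105475873-105476108, lay 4508 bp from Cavin3, a gene of caveolar coats. Its folds were 5.50, 6.08 and 5.66 in control replicates 2, 3 and 4. Close in rank came a region 23864 bp from Phf21b, at chr15:84879993-84880217, with 4.76, 5.61 and 4.95 in the same lists. Inside Sdk1, a synaptic adhesion gene, chr5:141716564-141717019 had 6.60, 5.15 and 4.24 in those lists. The region in Unc5a, a netrin receptor gene, at chr13:54988100-54988297, had 5.13, 5.61 and 3.89 in them, and the nearest 2-DG peak was 1984 bp away. A region in Fes, a tyrosine kinase gene, at chr7:80385126-80385536, had 5.09, 4.76 and 3.89 in control replicates 1, 2 and 4. The Unc5a and Fes regions, at mean percentiles of 60.0 and 55.1, ranked below some regions listed next, such as that nearest to Tm2d3 (65.2).

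The other 10 regions of this group lay inside Gm26650, Nxpe5 and Ccdc162 or nearest to Tm2d3, B3gat1, Spaca3, A530032D15Rik, Gm19428, Btbd35f29 and Hnf4g. Distances to these nearest genes ran from 2717 bp (A530032D15Rik) to 501202 bp (Hnf4g), with 76527 bp for Tm2d3 and 101346 bp for B3gat1. Folds of the 10 regions ran from 3.54 to 6.55. Of these, the regions at Gm26650, Nxpe5, A530032D15Rik, Btbd35f29 and Hnf4g had a 2-DG peak within 761 bp. Several thus border on a 2-DG peak that they do not overlap.

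Over all members, the mean within-list percentile had a median of 48.6 for regions of 2 control lists and 48.4 for those of 3 or 4. The highest region of 2 control lists by percentile, chr5:15463421-15464299, lay 7407 bp from Gm21149 in the crowded bin of chromosome 5, with folds of 9.09 and 10.6 in control replicates 1 and 4 and a 2-DG peak 637 bp away. Asmt, on chromosome X, encodes the last enzyme of melatonin synthesis. Its region, chrX:170677283-170677757, lay 297 bp from the gene end, with 7.02 and 8.13 in control replicates 3 and 4. Both lists with conflicting labels touched it. Oxtr encodes the oxytocin receptor, and its region, chr6:112489530-112489693, lay 1342 bp inside the gene end with folds of 9.09 and 7.33 in control replicates 1 and 2. Neither list with conflicting labels touched it, and the nearest 2-DG peak was 9553 bp away.

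Inside Ttc21b, a gene of ciliary transport, chr2:66189212-66189460 had folds of 7.48 and 7.07 in control replicates 3 and 4. The region in Mindy2, a deubiquitinase gene, had 6.55 and 6.72 in control replicates 3 and 4, and both lists with conflicting labels touched it. Regions nearest to Lyzl1, Slitrk6, Gm21190 and Smarca2 belonged to the same rank, with folds from 5.30 to 10.6. The one near Slitrk6 lay 840135 bp from the gene. Of all members, 55 (9.32%) overlapped a long noncoding RNA gene of the RefSeq table and 13 (2.20%) a pseudogene, against 10.8% and 1.14% of all regions.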

How the data were processed

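The authors deposited 1 peak list per immunoprecipitation. Per the submitters' processing notes, tools included BWA, Picard, MACS2 and DiffBind and the build was mm10; versions, filters and the use of inputs were not given in the sources used here. Each deposited peak has a fold (a ratio), a −log10 p-value, a −log10 q-value and a score that restates −log10 q; they served to rank, filter or describe peaks of one list; folds of different lists stand side by side but have different steps and were not tested against each other. The lists stop at −log10 q of 1.50 to 1.77 (2-DG) and 1.32 to 1.46 (control), so they end at different q-values. The design text counts 3 independent replicates, and no label links a list to a culture of its own, so p-values cover only the spread among these lists, which may be technical. The extraction text describes RNA, and no chromatin protocol is given in the sources used here.

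Repeated intervals were counted once, at their highest summit. Merging, left-out shares and position differences were computed in Python 3.11.15 with pandas 2.3.3, numpy 2.4.6 and scipy 1.17.1, and the code was tested on simulated data. Permutation tests were two-sided and exact, over 70 assignments of lists or all sign flips of 4 differences, with Benjamini-Hochberg adjustment over 4 tests. Intervals are exact binomial at 95% (Clopper-Pearson). Gene positions and promoter sequences came from RefSeq tables of GRCm38.p6, which give no exons; no genome sequence was used. All 226 listed genes matched by symbol. Named regions were, by rule, those of 4 control lists, those of 3 at a gene end, the 15 others of 3 and the 10 of 2 with the highest mean percentile of fold, and any at the end of a listed gene. One region that the rule names is not reported here. Other names were chosen after their values were seen. Members and gene lists were chosen with earlier results of these data known. Alternatives were other peak thresholds, equal list lengths, other gene-end widths, other overlap rules, autosomes only, each list left out, and the conflicting lists added by title or description; leaving out crowded bins was added after the data were seen.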

Additional observations from a re-analysis of the deposited data

How the results depend on the processing

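The number of members fell to 41 when 3 of 4 control lists were asked for, to 340 and 55 at −log10 q of at least 2 and 5, and to 137 at fold of at least 5. It was 929 when the conflicting lists joined by description, and 231 to 912 with 1 list left out. The left-out share difference ran from -3.26 (equal list lengths) to 12.4 points over 18 alternatives, was above 0 in 17, and passed in none, with exact permutation p from 0.0571 to 0.714. For the 2-DG-only class it was above 0 in all 18 and passed unadjusted in 13; with the conflicting lists put in by description it was 17.9 points (exact permutation p = 0.222), and 44.4 to 46.3 without 1 control list. The gene-end difference was -0.522 when the conflicting lists joined by description, and -1.31 to 5.51 with 1 list left out. The gene-body difference was 1.13 at −log10 q of at least 2, -12.9 at 5, -7.89 at fold of at least 5 and -3.71 to 2.73 with 1 list left out. Neither passed under any of 20 alternatives, where the smallest possible p limits the test. The list titled 2-DG touched 23.7% of members within 500 bp, and the list titled control touched 17.9% at −log10 q of at least 2. Stricter thresholds leave fewer peaks, and the cause of these changes was not tested. Unknown depth limits every absence reported here.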
